A study of Mus musculus with 2 samples.

Results

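Border-associated macrophages are the resident macrophages of the brain's boundaries: the meninges, the spaces around blood vessels and the choroid plexus. They were selected among barcodes in which 500 or more genes were detected and mitochondrial transcripts took no more than 5% of the UMIs (unique molecular identifiers, each counting 1 captured RNA molecule). A member had 4 or more UMIs of Mrc1, F13a1, Cd163, Pf4 and Lyve1 together, from at least 2 of these 5 genes. At least 2 of the general macrophage genes Csf1r, C1qa, C1qb and Cx3cr1 had to be detected, with at most 3 UMIs of the microglial genes P2ry12 and Tmem119 and at most 1 UMI of Slc17a7, Pecam1 and Mog, which mark glutamatergic neurons, endothelium and oligodendrocytes. The rule gave 246 members of 24541 kept barcodes, 111 in the fluconazole library and 135 in the vehicle library. The fluconazole library came from Shank3-/- mice given fluconazole, an antifungal azole, in drinking water for 2 weeks, and the vehicle library from Shank3-/- mice given the vehicle (labelled MOCK) in the same way. Shank3 is a scaffold of the postsynaptic side of excitatory synapses, and both groups carry the deletion, so no comparison with Shank3-intact mice was possible. The tissue is labelled brain, and the design text names prefrontal cortex. The extraction text describes nuclei and the design text cells and nuclei, so the term barcode is used for either. The age of the mice, the deleted part of Shank3 and the number of mice behind each library are not given in the sources used here.

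Border-associated macrophages arise largely from embryonic precursors, as microglia do, but sit outside the brain tissue proper, where they take up proteins and lipids from cerebrospinal fluid and blood vessel walls through scavenger receptors and the mannose receptor encoded by Mrc1. Part of the population carries MHC class II, the complex that presents peptides to helper T cells, and another part carries the hyaluronan receptor Lyve1. They also release chemokines that draw leukocytes to the brain's borders.

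Each treatment is represented by 1 library, so differences between the treatments could not be tested, and no p-value is given. Every difference is between 2 libraries, and barcodes of a library are not replicates. The 95% intervals are for counting error alone. Levels are given as CPM, the UMIs of a gene in every 1e6 UMIs summed over the members of a library. Members had a median of 5838 UMIs (832 to 14589) in the fluconazole library and 4689 UMIs (805 to 15957) in the vehicle library, and summed to 650832 and 669002 UMIs. Between the libraries 45 barcode sequences were shared, and none of them was a member in both. Over the kept barcodes Shank3 stood at 53.2 CPM in the fluconazole library and 48.4 CPM in the vehicle library. Members held 3 and 4 Shank3 UMIs.

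The border macrophage markers Mrc1, F13a1, Pf4 and Cd163 were part of the rule and so are no check of the label. Among genes the rule did not use, Ms4a7, a membrane protein gene of the MS4A family, had a UMI in 97 of 111 fluconazole members and 111 of 135 vehicle members, and Folr2, a folate receptor gene, in 57 and 49. With every barcode thinned to 1500 UMIs, Ms4a7 was found in 55.1% (45.2 to 64.8) of fluconazole and 56.2% (47.2 to 65.0) of vehicle members, against 4 of 2410 and 0 of 3186 microglia, where a count of 0 allows up to 0.116%. Markers of other blood cells were low but not absent. The 8 dendritic cell markers summed to 64 UMIs in 27 fluconazole members and 61 UMIs in 27 vehicle members, of which Cd209a gave 49 and 44, while Xcr1, Itgae, Ccr7 and Siglecg were at 0 in both libraries. The 8 blood monocyte markers summed to 104 UMIs in 12 fluconazole members, 77 of them in 1, and 47 UMIs in 17 vehicle members. The 6 B cell markers gave 78 UMIs in 47 fluconazole members and 68 UMIs in 49 vehicle members, with Ms4a1 at 0 in both. The 6 mast cell markers were at 0, and the 8 T or NK cell markers gave 0 UMIs in fluconazole members and 1 in vehicle members. Transcripts of vascular and glial cells were present, and some of these marker lists differed between the libraries. The 8 endothelial markers summed to 389 CPM in fluconazole and 694 CPM in vehicle members, the 10 fibroblast markers to 172 and 448 CPM, and the 8 astrocyte markers to 221 and 647 CPM. The 8 mural markers went the other way, at 473 CPM in fluconazole and 188 CPM in vehicle members. Other glial lists lay close, with the 8 oligodendrocyte markers at 212 CPM in fluconazole and 221 CPM in vehicle members. The 10 microglial markers, of which the rule limited P2ry12 and Tmem119, stood at 804 CPM in the members of each library. Endothelial UMIs were found in 80 fluconazole and 99 vehicle members, fibroblast UMIs in 47 and 66, astrocyte UMIs in 58 and 62, and mural UMIs in 48 and 57. Single members held much of some sums, with 167 of the 308 mural UMIs in 1 fluconazole member and 163 of the 433 astrocyte UMIs in 1 vehicle member. Scrublet marked 3 fluconazole and 6 vehicle members as doublets.

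The 5 genes of the rule are a description of how the members were chosen. The ratios between libraries given below for these genes and Cx3cr1 come from values the rule used. They are a description as well, whatever their intervals. Their sum ran from 4 to 180 UMIs (median 60) in fluconazole members and from 4 to 150 UMIs (median 43) in vehicle members. Few barcodes lay near that cut: 3 fluconazole and 5 vehicle members had 4 or 5 of these UMIs, and 3 fluconazole and 15 vehicle barcodes met every other condition but had 2 or 3. The microglial cut crossed a denser range, with 30 fluconazole and 27 vehicle members at 2 or 3 UMIs of P2ry12 and Tmem119, and 6 and 2 barcodes just outside at 4 or 5. All 5 genes were detected in 50 fluconazole members (45.0%) and 36 vehicle members (26.7%). These detections and the sums above are at full depth, with a median of 5838 UMIs in fluconazole and 4689 UMIs in vehicle members. The part of depth in these differences was not tested. Per member, F13a1 ranged from 0 to 85 UMIs (median 15) in the fluconazole library and from 0 to 47 UMIs (median 7) in the vehicle library. It summed to 2941 and 2109 CPM, a log2 ratio of fluconazole over vehicle of 0.48 (0.38 to 0.58). Lyve1, the hyaluronan receptor gene, stood at 432 CPM in fluconazole and 269 CPM in vehicle members (0.68, 0.41 to 0.96). Mrc1 (0.19), Cd163, a haemoglobin scavenger receptor gene (0.21, -0.07 to 0.50), and Pf4, which encodes the chemokine platelet factor 4 (-0.11), lay closer. Cx3cr1, the fractalkine receptor gene, which the rule allowed but did not require, was lower, with 116 UMIs in 46 fluconazole members and 212 UMIs in 77 vehicle members (178 and 317 CPM, -0.83, -1.17 to -0.50).

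Members made up 1.00% of kept barcodes in the fluconazole library (0.825 to 1.21) and 1.00% in the vehicle library (0.841 to 1.19), a ratio of 1.00 (0.770 to 1.29, exact conditional interval). The share is of droplets, not of cells per volume of tissue.

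Set against microglia, the macrophages of the brain tissue itself (2424 fluconazole and 3197 vehicle barcodes with at least 4 UMIs of P2ry12 and Tmem119 and at most 1 UMI of the 5 rule genes), members carried receptors, enzymes and chemokines that were almost absent there. Both populations were chosen by their own marker genes, so this contrast is a description. Of 14820 genes, 1133 (7.65%) were at least 2-fold higher in members in both libraries and 985 (6.65%) at least 2-fold lower. Ms4a7 stood at 644 CPM in fluconazole and 577 CPM in vehicle members, against 0.625 and 0.360 CPM in microglia of the same libraries. Cd36, a scavenger receptor for lipids, stood at 937 and 943 CPM, against 0.625 and 0.420 CPM in microglia. The lectin receptor genes Clec10a (287 and 236 CPM), Cd209f (350 and 395 CPM) and Clec4n (359.5 and 358.7 CPM) were at or below 0.480 CPM in microglia. Timd4, a receptor for phosphatidylserine on dying cells, had 29 UMIs in 21 fluconazole members and 31 UMIs in 26 vehicle members, against 1 UMI in the microglia of each library. The chemokine gene Ccl8, the growth factor gene Bmp2, and Wfdc17, Cbr2, Rgs18, Ms4a4a, Cd209b, Cd209g and Mgl2 completed the 15 genes highest in members, with log2 ratios over microglia from 8.60 to 10.99.

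The genes lowest in members relative to microglia included those that set microglial identity. Sall1, a transcription factor gene of microglia, had 2 UMIs in fluconazole and 3 UMIs in vehicle members, and stood at 3.07 and 4.48 CPM, against 249 and 245 CPM in microglia. Sparc, a matrix glycoprotein gene, stood at 53.8 and 82.2 CPM, against 1679 and 1856 CPM. The others were Sall3, Ecscr, the fructose transporter gene Slc2a5, Chst8, Gpr84, Nckap5l, Abi3 and Gal3st4, with log2 ratios from -6.61 to -4.50, of which Gal3st4 was at 0 in fluconazole members and its value there is a bound against 3 counts. C1qa, a gene of complement component 1q, stood at 5130 CPM in fluconazole and 4871 CPM in vehicle members, and at 4179 and 4636 CPM in microglia. Microglia, like members, had to show at least 2 of Csf1r, C1qa, C1qb and Cx3cr1. The presence of C1qa in both populations was thus partly set by the selection.

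**Figure D1:**
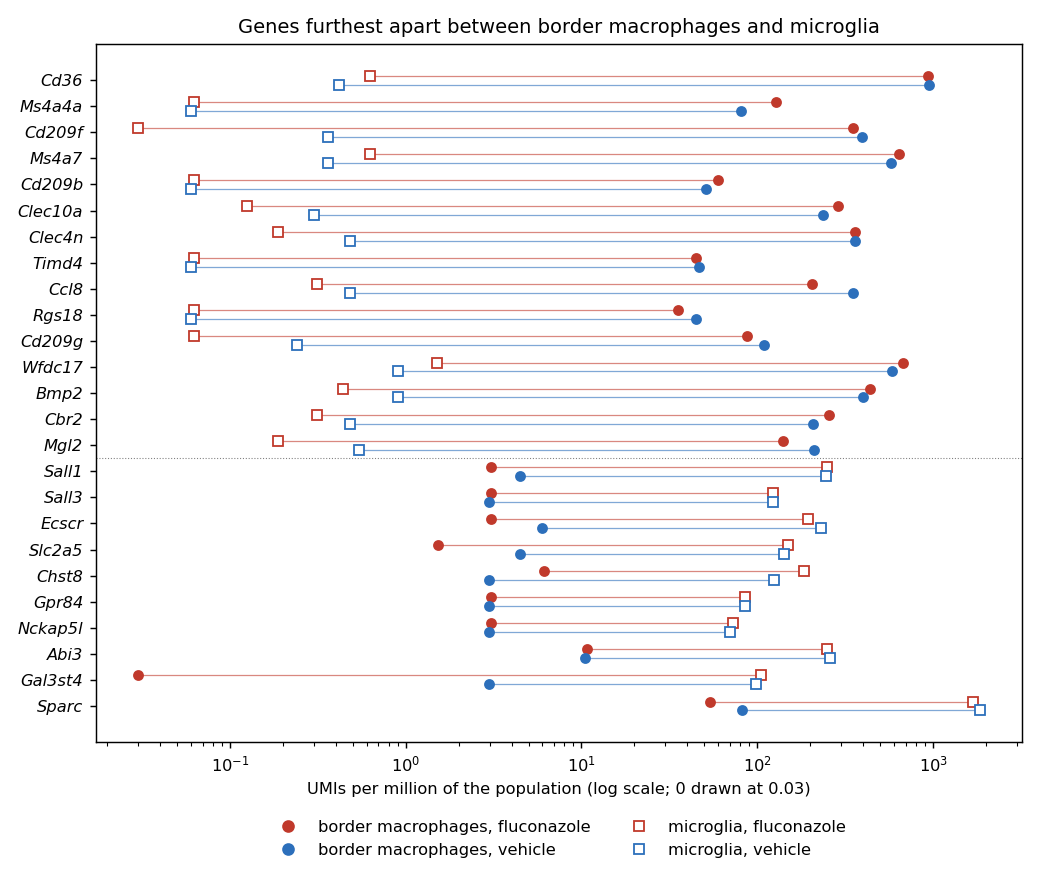
CPM (log axis) of the 15 genes highest and the 10 genes lowest in border macrophages relative to microglia; circles are border macrophages, squares microglia, red the fluconazole and blue the vehicle library, and a value of 0 is drawn at 0.03. Cd36 lies at 937 and 943 CPM in border macrophages and below 1 CPM in microglia, and Sall1 at 3.07 and 4.48 CPM against 249 and 245 CPM.

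Of the 7806 genes with at least 20 UMIs in members, 195 were at least 2-fold higher in the fluconazole library (2.5%) and 368 at least 2-fold lower (4.71%). The median log2 ratio over these genes was -0.01, with 49.3% higher and 50.7% lower by any amount. With at least 50 UMIs, 40 of 4504 genes were at least 2-fold higher (0.888%) and 119 at least 2-fold lower (2.64%). In microglia, with 16908 genes, 1.05% were at least 2-fold higher and 2.19% at least 2-fold lower, and 47.6% were higher and 52.4% lower by any amount.

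Fkbp5, a co-chaperone of the glucocorticoid receptor whose gene that receptor induces, led the genes higher in the fluconazole library. It had 107 UMIs in 54 fluconazole members (0 to 7 per member) and 22 UMIs in 16 vehicle members (0 to 3 per member), which gave 164 and 32.9 CPM and a log2 ratio of 2.32 (1.65 to 3.05). Microglia had 230.4 CPM in the fluconazole and 146 CPM in the vehicle library, a log2 ratio of 0.66. Thinned to 1500 UMIs, 20.6% of 107 fluconazole members (13.4 to 29.5) and 7.81% of 128 vehicle members (3.81 to 13.9) had an Fkbp5 UMI, against 2.56% and 3.91% of glutamatergic neurons, whose own depths were 12800 and 9296 UMIs. The log2 ratio of the thinned sums was 1.20. The ratio was 2.27 when the members richest in transcripts of other cell types were left out.

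Mgst1, a microsomal glutathione transferase gene, had 40 UMIs in 22 fluconazole members and 10 UMIs in 10 vehicle members (2.04, 1.01 to 3.20). Colec12, a scavenger receptor of the collectin family that binds oxidised lipoproteins and microbial sugars, had 352 UMIs in 79 fluconazole members and 175 UMIs in 71 vehicle members. It stood at 541 and 262 CPM (1.05, 0.78 to 1.32), and at 9.94 and 7.74 CPM in microglia. At 1500 UMIs, 48.6% of fluconazole members (38.8 to 58.5) and 28.9% of vehicle members (21.2 to 37.6) had a Colec12 UMI, against 0.641% and 1.68% of glutamatergic neurons. The distributions overlapped, with the median member at 2 UMIs in the fluconazole and 1 UMI in the vehicle library. Homer1, a scaffold that binds Shank proteins and has a short form induced by activity, had 113 UMIs in 36 fluconazole members and 45 UMIs in 24 vehicle members (174 and 67.3 CPM, 1.37, 0.86 to 1.90). Homer1 also stood apart in glutamatergic neurons, at 461 and 225 CPM, and its part as free RNA in the members' value was not tested.

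The remaining genes on this side were Atg4a, an autophagy protease gene (1.85), Msrb1, a methionine sulfoxide reductase gene (1.55), Zcchc14 (1.52), Pex7, the import receptor of peroxisomes (1.48), the actin-binding Lima1 (0.85), the cytokine receptor kinase gene Jak1 (0.70), Mapkapk2, a kinase downstream of p38 (0.69), and Cited2, a regulator that binds the coactivators CBP and p300 (0.65, 0.48 to 0.82). Cited2 had 713 UMIs in 82 fluconazole members and 466 UMIs in 94 vehicle members. Without the members richest in other cell types' transcripts Msrb1 stood at 0.83 (-0.23 to 1.97), from 23 and 12 UMIs. Atg4a then stood at 2.41 (1.24 to 3.81), from 40 and 7 UMIs. Over all members, 10 of the 40 fluconazole Msrb1 UMIs lay in 1 member. Thinned shares of members with an Msrb1 UMI were 5.61% in the fluconazole and 4.69% in the vehicle library. Of the fluconazole Jak1 UMIs 18.3% lay in 1 member, and thinned shares of members with a Jak1 UMI were 39.3% in the fluconazole and 46.9% in the vehicle library.

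**Figure D2:**
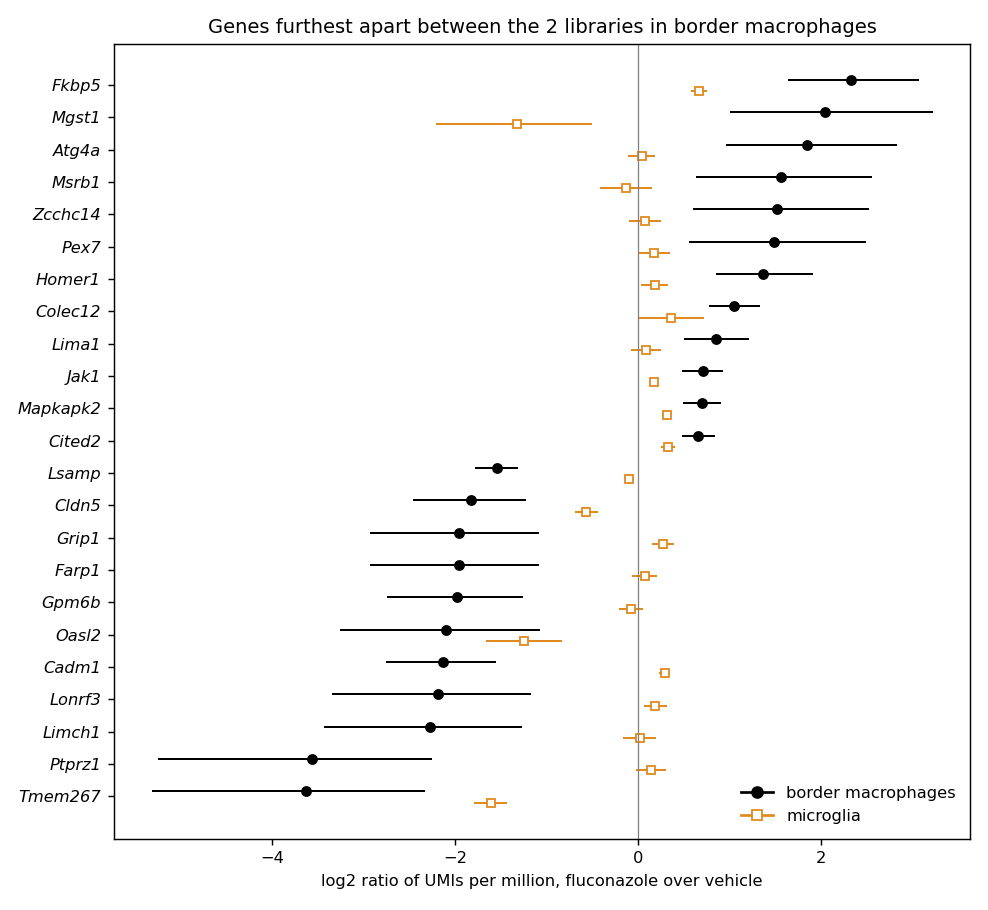
Log2 ratio of CPM, fluconazole over vehicle, for genes furthest from 0 by the nearer bound of their interval; black circles are border macrophages, open orange squares microglia, and lines are 95% intervals from counting error. Fkbp5 lies at 2.32 in border macrophages and 0.66 in microglia, and the intervals of Mgst1, Cadm1, Lonrf3 and Grip1 lie on opposite sides of 0 in the 2 populations.

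Several of the genes lower in the fluconazole library are known from glia, neurons or endothelium. Ptprz1, a receptor phosphatase gene of astrocytes and oligodendrocyte precursors, had 5 UMIs in 4 fluconazole members and 61 UMIs in 15 vehicle members (-3.57). Lsamp, a neuronal adhesion gene, had 218 UMIs in 53 fluconazole members and 655 UMIs in 62 vehicle members (-1.55, -1.78 to -1.32), with 132 of the fluconazole UMIs in 1 member and 129 and 110 of the vehicle UMIs in 2 members. The adhesion gene Cadm1 (-2.14), the glutamate receptor scaffold gene Grip1 (-1.96), the neural membrane glycoprotein gene Gpm6b (-1.98), Farp1 (-1.96), Limch1 (-2.28) and Cldn5, an endothelial tight junction gene (-1.83), followed.

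The same ratios were computed without the 25 fluconazole and 34 vehicle members that had over 4 UMIs of any 1 marker list of vascular, fibroblast, glial, neuronal, monocyte, neutrophil, T or NK or red blood cells. Of the 5984 genes then measured, 169 were at least 2-fold lower (2.82%) and 188 at least 2-fold higher (3.14%). In the remaining 86 fluconazole and 101 vehicle members Lsamp stood at 0.15 (-0.44 to 0.75), Cadm1 at -0.41 (-1.42 to 0.58) and Gpm6b at -0.39 (-1.84 to 1.01). Grip1 stood at -0.59 (-2.59 to 1.28) from 5 and 7 UMIs and Limch1 at -1.28 (-3.43 to 0.57) from 4 and 9 UMIs. Farp1 stood at -1.69 (-5.03 to 0.79) from 2 and 6 UMIs and Ptprz1 at -2.28 (-5.52 to -0.0028) from 2 and 9 UMIs. The intervals of Grip1, Limch1, Farp1 and Ptprz1 also hold the value over all members. Cldn5 stood at -1.37 (-2.60 to -0.25) from 10 and 24 UMIs. Lonrf3 stood at -2.81 (-4.34 to -1.56) from 6 and 39 UMIs, against -2.19 from 10 UMIs in 9 fluconazole members and 47 UMIs in 21 vehicle members with every member counted. The part that transcripts of other cells have in these ratios was not tested.

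Tmem267, a transmembrane protein gene, had 5 UMIs in 4 fluconazole members and 64 UMIs in 29 vehicle members (7.68 and 95.7 CPM, -3.64, -5.31 to -2.34). It was lower in microglia as well, with 368 UMIs in the fluconazole and 1175 UMIs in the vehicle library (-1.62). In glutamatergic neurons it stood at 9.77 CPM in the fluconazole and 574 CPM in the vehicle library, and the part of free RNA in the members' value was not tested. With the members rich in other cell types' transcripts left out it stood at -2.37. Oasl2, an interferon-induced gene, had 10 UMIs in 10 fluconazole members and 44 UMIs in 28 vehicle members (-2.10, -3.25 to -1.09), and was little moved by that step (-2.11).

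MHC class II antigen presentation was the gene list with the lowest median, at a log2 ratio of -1.02 over its 8 measured genes of 10, of which 6 were lower and 2 higher. Over all measured genes 50.7% were lower and the median was -0.01. Both chains of the class II molecule I-A were lower: H2-Aa had 390 UMIs in 18 fluconazole members and 856 UMIs in 36 vehicle members (599 and 1280 CPM, -1.09, -1.27 to -0.92), and H2-Ab1 had 242 UMIs in 15 and 570 UMIs in 30 members (-1.20, -1.42 to -0.98). The I-E chain gene H2-Eb1 had 292 UMIs in 12 fluconazole members and 585 UMIs in 30 vehicle members (-0.96, -1.17 to -0.76). Cd74, the invariant chain that guides class II molecules through the cell, had 758 UMIs in 27 fluconazole members and 1635 UMIs in 66 vehicle members (-1.07, -1.20 to -0.94). The peptide loading genes H2-DMa (-1.15) and H2-DMb1 (-0.77) were lower, whereas the protease gene Ctss (0.09) and the lysosomal thiol reductase gene Ifi30 (0.54) were not. The summed list stood at 3680 CPM in fluconazole and 6538 CPM in vehicle members (-0.83, -0.90 to -0.76). Of the list's 10 genes, 7 lay on the lower side in microglia and 3 on the higher side (median -0.31). The list's sum there was 2401 CPM in the fluconazole and 2393 CPM in the vehicle library. That sum also counts Ctss and Ifi30, so it is not a level of the class II chains alone.

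The Y box is an element that the factor NF-Y binds in class II promoters. Among the class II list's measured genes with a promoter entry, H2-Aa and H2-Eb1 held it. H2-Ab1 and Cd74 had no entry and were not searched. The window ran from 250 bases before to 50 bases after the RefSeq start site (GRCm38.p6). The letters CTGATTGG, searched on both strands, were in a promoter of 4.70% of 27025 genes and of 2 of the 6 list genes with an entry. The others were H2-DMa, H2-DMb1, Ctss and Ifi30. This motif was chosen after the values were known. The 100 bases around each match are shown 5′ to 3′ on the gene's strand, with the match in capitals.
H2-Aa, chr17:34287824-34287923, minus strand: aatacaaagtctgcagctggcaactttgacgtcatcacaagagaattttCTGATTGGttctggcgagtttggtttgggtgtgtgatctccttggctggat
H2-Eb1, chr17:34305765-34305864, plus strand: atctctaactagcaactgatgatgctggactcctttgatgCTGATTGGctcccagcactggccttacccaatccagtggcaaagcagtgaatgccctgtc
The matches lie 51 and 62 bases before the start sites, and a match is a description of letters only.

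The class II UMIs lay in few members of each library. Thinned to 1500 UMIs, 8 of 107 fluconazole members had at least 3 UMIs of H2-Aa, H2-Ab1 and H2-Eb1 together (7.48%, 3.28 to 14.2), against 21 of 128 vehicle members (16.4%, 10.5 to 24.0). The 2 intervals overlap. No class II UMI was found in 95 fluconazole and 97 vehicle members, and 1 or 2 in 4 and 10, so that 0 fluconazole members and 1 vehicle member lay just above the cut, at 3 or 4. As background, H2-Aa had a UMI in 0.321% of fluconazole and 1.12% of vehicle glutamatergic neurons at the same depth, and in 0.332% and 1.16% of microglia. With the 14 fluconazole and 29 vehicle members of at least 3 class II UMIs at full depth left out, the list's sum stood at -0.07, as leaving them out removes most UMIs of the list. Fewer members of that kind and less RNA in each cannot be told apart by the sum. In the 8 fluconazole and 21 vehicle members with at least 3 thinned class II UMIs, Cd74 stood at 13243 and 12197 CPM. H2-DMa stood at 350 and 399 CPM and H2-DMb1 at 391 and 333 CPM in these members. Which of the 2 lies behind the lower sum was not tested.

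**Figure D3:**
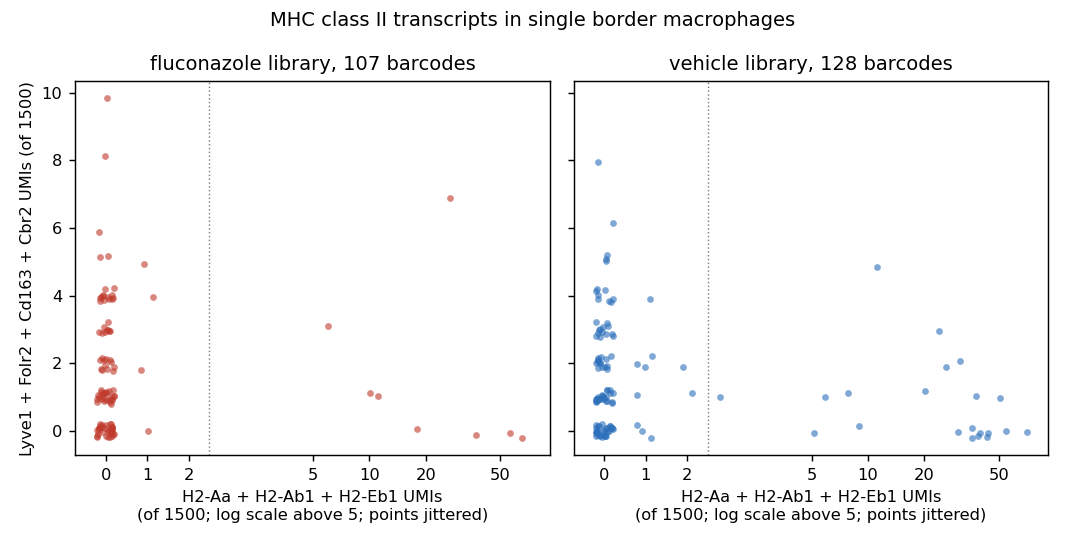
UMIs of H2-Aa, H2-Ab1 and H2-Eb1 (horizontal, linear to 5 and logarithmic above) and of Lyve1, Folr2, Cd163 and Cbr2 (vertical) in each border macrophage thinned to 1500 UMIs, fluconazole library left and vehicle library right; points are jittered and the dotted line marks the cut at 3 UMIs. To the right of the line lie 8 of 107 fluconazole and 21 of 128 vehicle members.

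Members with at least 3 thinned class II UMIs differed from those with 0 in genes the split did not use. Of the rule's genes, Pf4 stood at 1398 CPM with and 3719 CPM without class II UMIs in the fluconazole library. In the vehicle library Pf4 stood at 1905 and 4064 CPM. F13a1 (1419 and 3135 CPM, vehicle 1564 and 2223 CPM) and Mrc1 (1131 and 3619 CPM, vehicle 2621 and 2967 CPM) were lower likewise. Cd163 was lower in the fluconazole library (206 and 351 CPM) and higher in the vehicle library (358 and 266 CPM). In the fluconazole library Ccr2, the chemokine receptor of blood-derived monocytes, stood at 329 CPM in members with class II UMIs and 22.8 CPM in members without, and in the vehicle library at 283 and 0 CPM. These rest on 29 UMIs in 5 fluconazole members and 34 UMIs in 8 vehicle members in all. Lyve1 went the other way, at 41.1 CPM with (2 UMIs in 1 member) and 456 CPM without class II UMIs in the fluconazole library, and at 74.9 and 319 CPM in the vehicle library. Cd52, a small surface glycoprotein gene of leukocytes, stood at 350 CPM with and 84.2 CPM without class II UMIs in the fluconazole library and at 499 and 52.9 CPM in the vehicle library. Igf1 stood at 165 CPM with (8 UMIs in 1 member) and 363 CPM without class II UMIs in the fluconazole library and at 125 and 340 CPM in the vehicle library. Folr2, a folate receptor gene, had opposite directions, with 17 UMIs in 3 of the 8 fluconazole members with class II UMIs (350 CPM, against 170.3 CPM without) and 3 UMIs in 2 of the 21 vehicle members.

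Interferon response genes were lower in 20 of 24 measured of 28 and higher in 4, with a median of -0.49 and 6 at least 2-fold lower. Over all measured genes in members 50.7% were lower and 4.71% at least 2-fold lower. The list's sum stood at 2422 CPM in fluconazole and 3052 CPM in vehicle members (-0.33, -0.43 to -0.24). In microglia 27 of the 28 listed genes were lower, with a median of -0.89, against 52.4% of all genes measured there. Ifit3, an antiviral protein gene of the IFIT family, had 19 UMIs in 13 fluconazole members and 67 UMIs in 28 vehicle members (-1.78, -2.60 to -1.03). Rsad2, which encodes viperin, had 7 UMIs in 5 fluconazole members and 28 UMIs in 12 vehicle members (-1.96). Ifi27l2a had 140 UMIs in 46 fluconazole members and 258 UMIs in 66 vehicle members (-0.84, -1.15 to -0.54), and Bst2, or tetherin, stood at -0.34. Ifi207, of the interferon-inducible p200 family, had 531 UMIs in 96 fluconazole members and 500 UMIs in 112 vehicle members (0.13, -0.05 to 0.31), whereas in microglia it stood at 2.56 and 7.98 CPM (-1.64). At 1500 UMIs the shares of members with an Ifit3 UMI, 5.61% (2.09 to 11.8) in the fluconazole and 10.9% (6.11 to 17.7) in the vehicle library, have overlapping intervals, and the list's median was -0.21.

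The interferon-stimulated response element, the site through which type I interferon acts on promoters, was searched as GAAA, any 2 bases and GAAA again on both strands of the same windows. It was in a promoter of 3.99% of all genes and of 9 of the 15 measured interferon genes with a promoter entry: Ifit3, Isg15, Rsad2, Bst2, Stat2, Ifi207, Ifi211, Trim30a and Slfn5. Ifit3 and Rsad2 are shown as listed genes at least 2-fold lower in the fluconazole library, and Isg15 as the one with most matches, 3 that overlap. Capitals mark the matches, on the gene's strand from 5′ to 3′.
Ifit3, chr19:34583333-34583456, plus strand: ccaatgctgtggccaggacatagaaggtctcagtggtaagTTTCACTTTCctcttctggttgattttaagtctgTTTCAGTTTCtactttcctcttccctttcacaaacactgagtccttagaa
Rsad2, chr12:26456513-26456612, minus strand: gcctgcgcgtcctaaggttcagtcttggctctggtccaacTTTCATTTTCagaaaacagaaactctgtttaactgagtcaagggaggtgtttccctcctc
Isg15, chr4:156200835-156200936, minus strand: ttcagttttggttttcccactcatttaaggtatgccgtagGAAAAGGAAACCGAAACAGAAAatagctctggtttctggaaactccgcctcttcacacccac
The log2 ratios of the 9 genes that hold the letters ran from -1.96 to 0.13 (median -0.34), and those of the 6 that do not, Ifi209, Ifit2, Irf7, Oasl2, Slfn2 and Xaf1, from -2.35 to 0.28 (median -1.33).

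MHC class I antigen presentation was lower in 10 of 12 measured of 14 genes (median -0.23), against 50.7% of all measured genes. The class I heavy chain gene H2-K1 had 235 UMIs in 84 fluconazole members and 363 UMIs in 113 vehicle members (-0.59, -0.83 to -0.35), and the immunoproteasome subunit gene Psmb8 stood at -0.67. B2m, the light chain, stood at 709.9 CPM in fluconazole and 834 CPM in vehicle members (-0.23, -0.41 to -0.05).

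Scavenger and endocytic receptors were higher in 14 and lower in 9 of 23 measured of 25 genes (median 0.18). Over all measured genes 49.3% were higher. Besides Colec12, Dab2, an endocytic adaptor gene, stood at 2425 CPM in fluconazole and 1985 CPM in vehicle members (0.29, 0.18 to 0.39), and the inhibitory antibody receptor gene Fcgr2b at 576 and 429 CPM (0.43, 0.20 to 0.65). Lrp1, a lipoprotein receptor gene, stood at 0.78 and Ap2a2, a subunit of the clathrin adaptor, at 0.87, from 107 UMIs in 58 fluconazole members and 60 UMIs in 44 vehicle members. Mgl2, a galactose-binding lectin gene, was lower (-0.58, -0.98 to -0.19), while Cd36 (-0.01) and Stab1 (0.05) lay at the middle. Border macrophage genes that the rule did not use were higher in 19 and lower in 11 of 30 (median 0.09), with the lysozyme gene Lyz2 (0.26) on the higher side, Ccl8 (-0.76) lowest, and the transcription factor gene Maf at 0.23.

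Chemokine and cytokine genes had no common direction, with 8 higher and 12 lower of 20 measured (median -0.22, summed -0.03). Ccl2, which draws monocytes, had 2882 UMIs in 95 fluconazole members and 2484 UMIs in 115 vehicle members (4428 and 3713 CPM, 0.25, 0.18 to 0.33), and Ccl7, a close relative, stood at 4250 and 4244 CPM (0.00). Ccl8, which also draws monocytes, had 134 UMIs in 25 fluconazole members and 233 UMIs in 29 vehicle members (-0.76), with 47.8% of the fluconazole UMIs in 1 member. Ccl24, an eotaxin that draws eosinophils, had 499 UMIs in 90 fluconazole members and 734 UMIs in 94 vehicle members (-0.52, -0.68 to -0.35), of which 156 were in 1 vehicle member. At 1500 UMIs, Ccl24 was found in 60.7% of fluconazole and 49.2% of vehicle members, opposite in direction to its CPM. Cxcl2, which draws neutrophils, and Ccl4 stood at -0.47 each, Tnf at 0.35, and Il1b, from 29 UMIs in 9 fluconazole members and 68 UMIs in 11 vehicle members, at -1.19. Il1b stood at 0.30 without the members that held class II UMIs.

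The study's title names lipid rafts and the IGF1 receptor. Igf1 had 215 UMIs in 65 fluconazole members and 208 UMIs in 87 vehicle members (330 and 311 CPM, 0.09, -0.19 to 0.37), and stood at 2.38 and 2.94 CPM in microglia. Igf1r, its receptor gene, stood at 329 CPM in fluconazole and 294 CPM in vehicle members (0.16, -0.13 to 0.45). The insulin receptor gene Insr had 93 UMIs in 57 fluconazole members and 66 UMIs in 40 vehicle members (0.53, 0.06 to 1.01). Over the IGF1 and insulin list 17 of 31 measured of 36 were higher and 14 lower (median 0.09, summed 0.07, -0.01 to 0.15). Lipid raft scaffolds and sphingolipid enzymes split 12 and 11 of 23 measured (median 0.01), with Hexa, a ganglioside-degrading hexosaminidase subunit, at 0.33 and its activator gene Gm2a at -0.71.

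Cyp51, the mammalian form of the enzyme that fluconazole blocks in fungi, had 26 UMIs in 21 fluconazole members and 16 UMIs in 14 vehicle members (0.74, -0.21 to 1.74). Of 25 cholesterol biosynthesis genes only 10 were measured, 6 higher and 4 lower, and the sum stood at 441 CPM in fluconazole and 448 CPM in vehicle members (-0.02, -0.26 to 0.21). At this depth a difference of the summed pathway beyond these bounds was not seen. Apoe, the lipoprotein that carries cholesterol between brain cells, had 23777 UMIs in fluconazole and 22106 UMIs in vehicle members (0.14, 0.12 to 0.17). Lipoprotein and cholesterol handling genes were higher in 7 and lower in 11 of 18 measured (median -0.03), with Lrp1 highest and Fabp5, a fatty acid binding protein gene, lowest (-0.93) of those with at least 50 UMIs.

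Glucocorticoid-induced genes and receptors split 8 and 8 of 16 measured of 21 (median 0.03). Zbtb16, a transcription factor gene induced by glucocorticoids, had 33 UMIs in 25 fluconazole members and 5 UMIs in 4 vehicle members (2.76, 1.40 to 4.48), against 0.29 in microglia, and at 1500 UMIs it was found in 6 of 107 and 0 of 128 members, against 16.3% and 12.3% of glutamatergic neurons. Txnip, a thioredoxin inhibitor gene, stood at 753 CPM in fluconazole and 543 CPM in vehicle members (0.47, 0.27 to 0.67) and Tsc22d3, or GILZ, at 0.32. The kinase gene Sgk1 (-0.46, -1.28 to 0.33), Errfi1, an inhibitor of the EGF receptor (-0.71), and Cebpd (-0.53) were on the lower side, and the glucocorticoid receptor gene Nr3c1 stood at 0.11. The glucocorticoid response element, searched as GNACA, any 3 bases and TGTNC on both strands, was in a promoter of 0.537% of all genes and of 3 of the 12 listed genes with an entry, Sgk1, Mt1 and Txnip.

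Complement and coagulation genes were higher in 6 and lower in 5 of 11 measured, with Cfp, or properdin, at -0.76. Iron and haem handling genes (9 higher and 6 lower of 15, median 0.04) were led by the ferroxidase gene Cp at 0.39, and lysosomal genes (16 and 5 of 21, median 0.07) by Hexa. Immediate early genes were higher in 19 and lower in 4 of 23 (median 0.14), with Egr2, a zinc finger transcription factor gene, at 363 CPM in fluconazole and 218 CPM in vehicle members (0.73, 0.43 to 1.04). In microglia 19 of 23 were higher as well, with a median of 0.08. Over all measured genes 49.3% were higher in members and 47.6% in microglia. Macrophage transcription factor genes split 10 and 11 of 21 measured (median -0.03), with the orphan receptor gene Nr4a2 at 1.01, from 84 UMIs in 27 fluconazole members and 43 UMIs in 22 vehicle members, Cebpb at 0.61 and Runx1 at 0.33. Growth factor and matrix genes were higher in 8 and lower in 11 of 19 (median -0.22). Circadian clock genes split 8 and 8 of 16, heat shock chaperones 9 and 9 of 18, with Hspa1a at -0.86, nuclear-retained RNAs 4 and 4 of 8 measured of 11, and proliferation genes 2 and 2 of 4 measured of 16.

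**Figure D4:**
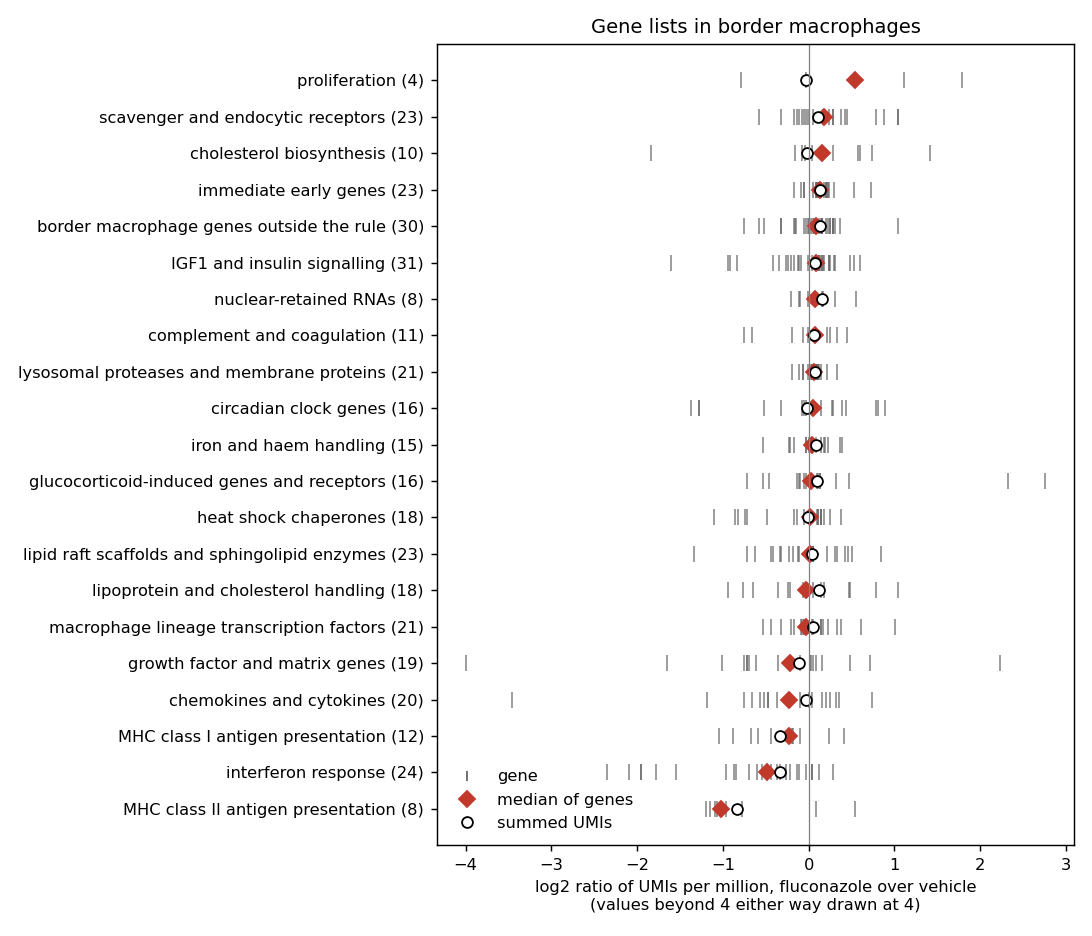
Log2 ratio of CPM, fluconazole over vehicle, in border macrophages for the measured genes of 21 gene lists (ticks), with the median of each list (red diamonds) and the ratio of its summed UMIs (open circles); numbers of measured genes are in parentheses, and ratios beyond 4 either way are drawn at 4. The MHC class II list has the lowest median, -1.02, and the interferon list the next, -0.49, while the IGF1 and insulin list lies at 0.09.

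By the ratio of variance to mean over members, class II, chemokine and neuronal genes and Apoe were among the highest in both libraries. Over 711 genes with a mean of at least 0.3 UMIs at 1500 UMIs per member, the ratio of variance to mean had a median of 1.34 in the fluconazole and 1.30 in the vehicle library. Cd74 (24.6 and 25.6) and H2-Aa (16.4 and 15.4) lay highest, and Apoe (13.6 and 12.2), Cxcl2 (8.31 and 9.53), Ccl4 (7.95 and 13.7) and Ccl7 (7.26 and 7.33) were among the next. The neuronal genes Lsamp (10.1 and 10.5), Ptprd (16.4 and 8.21) and Dlg2 (6.13 and 5.83) were among them as well. These genes were singled out after their values were seen. The ratio tends to rise with the mean, which was 59.6 and 54.6 UMIs for Apoe against 1.84 and 4.10 UMIs for Cd74. Apoe was found in 99.1% of fluconazole and 99.2% of vehicle members at 1500 UMIs. The chemokine genes Ccl2, Ccl3, Ccl4, Ccl7, Ccl12, Cxcl1 and Cxcl2 were also summed per member. This sum had a median of 19 UMIs of 1500 in fluconazole members and 20.5 UMIs in vehicle members. It reached 103 and 92, and was at 0 in 8 and 4 members.

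**Figure D5:**
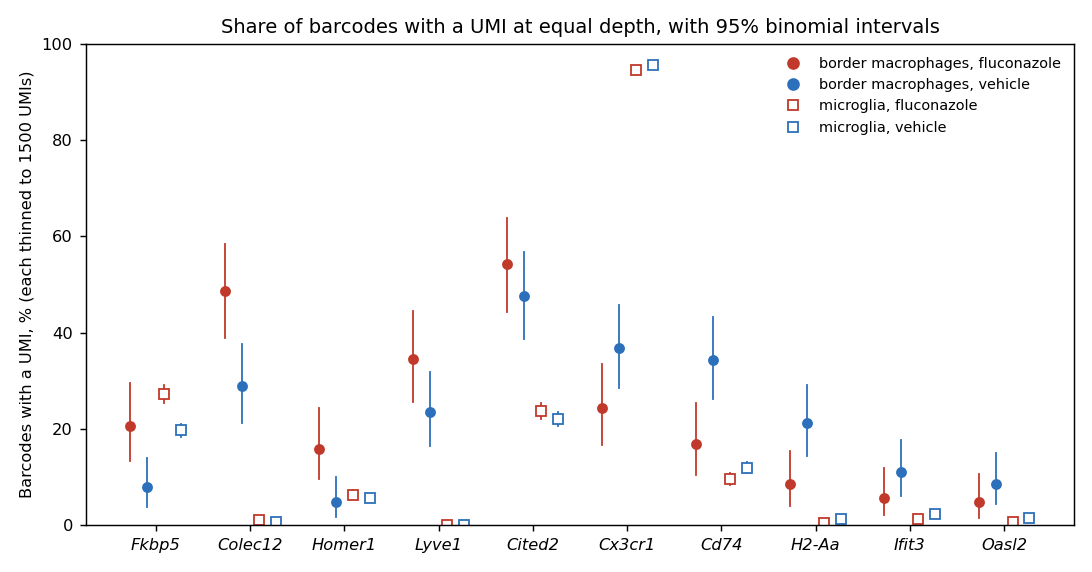
Percentage of barcodes with a UMI of each gene after thinning to 1500 UMIs, with 95% binomial intervals; filled circles are border macrophages, open squares microglia, red the fluconazole and blue the vehicle library. Colec12 was found in 48.6% of fluconazole and 28.9% of vehicle border macrophages, and Cd74 in 16.8% and 34.4%, while Cited2 (54.2% and 47.7%) has overlapping intervals.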

How the data were processed

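The deposited files hold counts of UMIs (whole numbers, not normalized by the authors) in sparse matrices, per the file headers, for 12637 fluconazole and 14924 vehicle barcodes. The matrix headers name Cell Ranger 8.0.1, and the submitters' processing notes list mm10, R 4.0.3, Seurat 4.0.0 and Cell Ranger 9.0.0. The counting of introns is not given in the sources used here, and 1735 of 33696 gene identifiers are not in GENCODE vM21, so coordinates were given only for RefSeq promoters (GRCm38.p6).

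The members, gene lists and rules were chosen with earlier results of these data known. Counts were summed over members per library and scaled to CPM (numpy 2.4.6, scipy 1.17.1, Python 3.11.15). Listed genes needed at least 20 UMIs over both libraries. The named genes are the 12 highest and 12 lowest by the nearer bound of the log2 ratio's interval, with at least 50 UMIs, a UMI in at least 10 members and no member above 25% in the higher library; gene models and the 5 rule genes were not ranked. Some genes these rules picked are not reported here. For microglia, the 15 highest and 10 lowest in both libraries were named, and for each list its extremes; other list genes given in the text were picked after their values were seen. Counts of near-identical genes (the H2, Ifi20x, Cd209 and Hspa1 families) may be split between copies. Intervals are exact: Clopper-Pearson for shares, Poisson for CPM and conditional binomial for ratios. They treat every UMI as independent and are too narrow where UMIs lie in few barcodes. For shares, each barcode was thinned to 1500 UMIs, which left out 4 fluconazole and 7 vehicle members. Doublets (Scrublet in scanpy 1.11.5, expected rate 8%) numbered 517 (4.09%) in the fluconazole and 617 (4.13%) in the vehicle library, and were kept except in 1 alternative. Scripts were tested on simulated data. Glutamatergic neurons (Slc17a7 of at least 3 UMIs, 314 and 179 barcodes) served as background for free RNA.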

Additional observations from a re-analysis of the deposited data

Results flagged for a closer look

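Of the named genes, 4 had intervals on opposite sides of 0 in border macrophages and in microglia of the same libraries. The difference between the 2 populations was not tested, since each treatment has 1 library. Mgst1 stood at a log2 ratio of fluconazole over vehicle of 2.04 in border macrophages, from 61.5 and 14.9 CPM, and at -1.32 in microglia, from 1.13 and 2.82 CPM. Cadm1 stood at -2.14 in border macrophages, from 47.6 and 209 CPM, and at 0.29 in microglia. Lonrf3 stood at -2.19 in border macrophages, from 15.4 and 70.3 CPM, and at 0.19 in microglia. Grip1 stood at -1.96 in border macrophages, from 21.5 and 83.7 CPM, and at 0.27 in microglia. With the members richest in transcripts of other cell types left out, Mgst1 stood at 2.26, Cadm1 at -0.41 and Lonrf3 at -2.81. Grip1 then stood at -0.59 (-2.59 to 1.28), from 5 and 7 UMIs.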

How the results depend on the processing

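The alternatives changed the selection, scaling, depth or UMI minimum; leaving out members rich in other cell types' transcripts and leaving out members with class II UMIs were chosen after seeing the data. No paired analysis was possible because each treatment has 1 library. Of the genes' fluconazole over vehicle ratios 479 values stayed within the counting interval, 53 moved and 8 reversed. Of the list sums 177 values stayed, 47 moved and 7 reversed. Of the list medians 136 values stayed and 95 moved, with 15 of the 21 lists moving without marker-rich members and 13 after thinning. In 13 lists the median changed sign under at least 1 alternative. It kept its sign in the other 8: class II (-1.16 to -0.27), interferon (-0.69 to -0.21), class I (-0.38 to -0.11), growth factors (-0.34 to -0.12), scavenger receptors (0.022 to 0.19), immediate early genes (0.058 to 0.17), nuclear RNAs (0.012 to 0.37) and lysosome (0.0010 to 0.11). The share ratio and the interferon, class I, IGF1, glucocorticoid, raft and sterol list sums stayed within their intervals. Where a value changed, the cause was not tested.

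Genes at least 2-fold higher numbered 103 of 3245 after thinning (3.17%), 295 of 7601 with members weighted equally (3.88%) and 40 of 4504 at 50 UMIs (0.888%), against 2.5% of 7806. Genes at least 2-fold lower numbered 132 of 3245 after thinning (4.07%), 119 of 4504 at 50 UMIs (2.64%) and 169 of 5984 without marker-rich members (2.82%), against 4.71%. Values below are log2 ratios of list sums, fluconazole over vehicle. With every member counted they were 0.11 for scavenger receptors, 0.14 for border macrophage genes, 0.069 for complement, 0.12 for lipoprotein and -0.018 for circadian. They were 0.081 for iron, 0.077 for lysosome, 0.052 for transcription factors, -0.11 for growth factors and 0.13 for immediate early genes. Heat shock stood at -0.0056, nuclear RNAs at 0.16 and proliferation at -0.034. Sums that reversed were those of complement, iron, lysosome and transcription factors. After thinning they were 0.054 for scavenger receptors, 0.093 for border macrophage genes, -0.92 for class II, -0.15 for chemokines, -0.022 for complement, 0.030 for iron, 0.032 for lysosome, -0.073 for transcription factors, -0.22 for growth factors, 0.035 for immediate early genes, 0.21 for nuclear RNAs and 0.64 for proliferation. Without marker-rich members they were 0.045 for scavenger receptors, 0.069 for border macrophage genes, -1.02 for class II, -0.20 for chemokines, 0.0015 for complement, 0.063 for lipoprotein, 0.37 for circadian, 0.015 for iron, 0.0080 for lysosome, -0.034 for transcription factors, 0.058 for immediate early genes and 0.20 for nuclear RNAs. Without class II members they were 0.034 for border macrophage genes, -0.068 for class II, -0.016 for complement, 0.0044 for lipoprotein, -0.026 for iron, -0.00083 for lysosome and 0.092 for transcription factors. Without doublets they were 0.091 for border macrophage genes, -0.085 for chemokines, 0.082 for lipoprotein, 0.028 for iron, 0.029 for lysosome, 0.094 for immediate early genes and 0.19 for nuclear RNAs. At 6 marker UMIs they were 0.16 for border macrophage genes, 0.033 for chemokines, 0.16 for lipoprotein, 0.16 for immediate early genes and 0.12 for nuclear RNAs. With members weighted equally they were -0.11 for chemokines, 0.020 for complement, 0.18 for circadian, 0.021 for iron, -0.012 for transcription factors, 0.052 for immediate early genes and -0.085 for heat shock. At no more than 1 microglial UMI they were -0.62 for class II, -0.15 for chemokines and 0.10 for immediate early genes. Without each gene's top member it was -0.97 for class II.

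Genes that reversed were Lsamp (0.15) and Rora (0.79) without marker-rich members, Rora (0.089) and Per2 (-0.16) after thinning, Rora (0.13) and Hspa8 (-0.018) with equal weights, Fabp5 (0.11) at no more than 1 microglial UMI and Il1b (0.30) without class II members. At 1 class II UMI the vehicle share was 24.2%. Depth limits genes under 20 UMIs and most sterol genes.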

Other observations

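Several genes with large ratios lay in 1 or a few members and so were not named by the rule. Retnla, a secreted resistin-like protein gene of alternatively activated macrophages, had 0 UMIs in fluconazole members and 158 UMIs in 1 vehicle member. Spp1, or osteopontin, had 1 UMI in fluconazole members and 56 UMIs in 7 vehicle members, with 71.4% of them in 1. Fn1, the fibronectin gene, had 32 UMIs in 6 fluconazole members, 78.1% of them in 1, and 7 UMIs in 7 vehicle members. Cxcl10, an interferon-induced chemokine gene, had 3 UMIs in 3 fluconazole members and 34 UMIs in 11 vehicle members (log2 ratio -3.46, -5.81 to -1.79). In microglia Cxcl10 stood at 61.3 CPM in the fluconazole and 61.4 CPM in the vehicle library.

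The gene models Gm56663 and Gm10790 were left unranked. Gm56663 stood at 369 CPM in fluconazole and 235 CPM in vehicle members, and at 0.438 and 0.240 CPM in microglia. Gm10790 stood at 117 CPM in fluconazole and 61.3 CPM in vehicle members, and at 309 and 254 CPM in microglia.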
